A study of Mus musculus with 14 samples.

Results

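The Wnt signalling genes covered here are the CpG sites whose gene symbol is a Wnt ligand, a Frizzled, Lgr or Lrp receptor, an R-spondin, a Dickkopf or secreted Frizzled-related inhibitor, an Axin, Dishevelled or Gsk3 protein, or a TCF factor. Members were chosen by gene symbol alone, and Ctnnb1, which encodes β-catenin, was left out. They comprise 418 of the 75761 sites measured and 43 of the 12627 gene symbols. A total of 339 of these sites, in 41 genes, varied enough between mice to be tested (standard deviation of the level of at least 0.05), of 65610 tested sites in all. Sfrp5 and Fzd4 have sites but none that varied this much. Lrp6, Apc, Gsk3b, Lef1, Porcn and Wls have no site in the table. One symbol that the rule matched, Rspo4os, is an antisense RNA beside Rspo4 and not an R-spondin. It is kept with the R-spondins below.

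Wnt ligands are secreted, lipid-modified proteins that bind a Frizzled receptor together with an Lrp co-receptor. In the canonical branch, binding inactivates a complex of Axin, Apc and Gsk3 that otherwise marks β-catenin for degradation, and β-catenin then works with TCF factors at target genes. In adipose tissue, canonical Wnt ligands such as Wnt10b restrain the conversion of precursors into adipocytes. In the mammary gland the pathway sustains stem cells and branching, and it was one of the earliest to be tied to mouse mammary tumors.

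DNA methylation was measured by reduced-representation bisulfite sequencing (RRBS), which cuts DNA at CCGG with the enzyme MspI and reads the methylated share of each cytosine near the cuts. The tissue was mammary adipose tissue, on the side opposite the tumor, of female C57BL/6NCrl mice that had been injected with E0771 mammary cancer cells in the fourth fat pad. Mice were bought at 8 weeks of age, were assigned to a diet 1 week later, and received the tumor cells 22 weeks after that assignment. The 3 CON-LFD mice never became obese on a low-fat diet (10% of calories as fat). The other 11 mice were made obese on a diet with 60% of calories as fat for 15 weeks. Of these, 4 DIO-HFD mice stayed on it, 3 DIO-LFD mice were switched to the low-fat diet, and 4 DIO-VSG mice underwent vertical sleeve gastrectomy and were also given the low-fat diet. All mice without gastrectomy had sham surgery. Tumor cells followed 7 weeks after surgery and tissue was taken 4 weeks later, so all groups, controls included, bore a tumor on the other side. Each sample is 1 mouse. Read depth is unknown, because the table gives levels and no read counts.

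A level averages over the cells of the tissue, so a change in the share of a cell type and a change within cells cannot be told apart. Of the marker genes for the cells that such tissue can hold, few have a site within 1000 bp of the transcript start: 2 of 8 adipocyte genes, 2 of 7 epithelial, 2 of 7 lymphocyte, and 0 of 4 each for macrophages and endothelium. The tissue label therefore could not be checked well. One mouse, DIO-HFD replicate 1, stood apart from its group. Its mean over all tested sites was 66.2%, where the other DIO-HFD mice were at 57.2, 57.6 and 57.6% and the other groups spanned 60.6 to 65.2%. Counts of calls are therefore also given without it, as are the printed adjusted p values that its omission brings under 0.05. Those that stay above 0.05 without it are mostly left out. Replicate 1 was singled out by its levels in these same data and not by a label. Counts and p values without it therefore cannot be taken at face value.

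Sequences of 7 windows are shown because they hold Wnt sites or regions described at length below, most of them among those with the smallest p between DIO-VSG and DIO-HFD mice. Each is written 5′ to 3′ on the plus strand of mm10, with 25 bases on each side of the outermost tested site. Capitals mark the CpGs tested, and lower-case cg pairs were not among the tested sites. The first 5 are groups of neighboring sites and the last 2 are single sites.
Wnt4, chr4:137264252-137264438, upstream and in no gene: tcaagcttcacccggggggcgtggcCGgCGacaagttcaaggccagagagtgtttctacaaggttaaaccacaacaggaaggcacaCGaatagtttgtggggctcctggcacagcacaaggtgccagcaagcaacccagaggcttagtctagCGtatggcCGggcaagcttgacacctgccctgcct
Wnt7b, chr15:85559945-85560047, intron: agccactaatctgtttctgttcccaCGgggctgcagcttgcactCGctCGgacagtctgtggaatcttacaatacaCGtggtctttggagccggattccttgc
Wnt7b, chr15:85542990-85543101, intron: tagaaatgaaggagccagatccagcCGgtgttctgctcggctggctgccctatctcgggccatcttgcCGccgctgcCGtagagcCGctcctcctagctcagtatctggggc
Wnt3, chr11:103812498-103812610, coding exon: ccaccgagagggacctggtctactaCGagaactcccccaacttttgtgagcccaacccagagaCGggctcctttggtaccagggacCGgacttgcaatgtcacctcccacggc
Tcf7, chr11:52314331-52314427, upstream and in no gene: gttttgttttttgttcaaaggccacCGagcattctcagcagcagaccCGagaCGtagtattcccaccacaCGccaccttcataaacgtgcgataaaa
Tcf7l2, chr19:55789070-55789121, intron: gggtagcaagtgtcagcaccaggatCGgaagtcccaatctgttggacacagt
Fzd10, chr5:128620201-128620252, downstream and in no gene: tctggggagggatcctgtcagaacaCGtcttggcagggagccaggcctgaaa

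The core letters that TCF factors recognise were searched as CTTTGA or CTTTGT on either strand. Of the 7 windows, the Tcf7 window holds 1 match. In windows reaching 100 bases to each side, 94 Wnt sites had a match (22.5%), against 15.9% of all sites. In RefSeq promoter sequences (mm10), 31 Wnt genes matched by symbol with 36 promoters. Of these promoters 27.8% held a match, against 31.2% of 32851 promoters. A match is only a run of letters and was not tested as a binding site. The Wnt promoters held a median of 29 CpGs, against 7 over all promoters.

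The Wnt sites lay closer to gene starts than the table as a whole. Within 5000 bp of the start were 63.9% of them, against 49.1% of all sites. CpG islands held 29.7% (23.8% of all sites), and 27.8% were in promoters (25.8% of all). The CCGG cut site itself covered 43.1% of Wnt sites and 32.7% of all. By the GENCODE annotation, 285 Wnt sites were inside the gene they are named for, 112 were in no gene, and 21 were inside another gene only. For example, the 4 neighboring Dvl2 sites at chr11:69999815-69999928 lie in an untranslated exon of Phf23. A level given for a gene is therefore the level at the sites nearest to its transcripts.

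Among the 33 genes with a promoter site, promoter levels were lowest for Sfrp5, a Wnt inhibitor secreted by adipocytes, at 2.13% over 14 mice. The Fzd2 receptor followed at 5.12% and the inhibitor Sfrp2 at 11.2%, each from 1 site. The highest promoter levels were 64.7% for the ligand Wnt2b (3 sites), 63.6% for Dvl2, which relays the signal from Frizzled (5 sites), and 56.6% for the repressive TCF factor Tcf7l1 (3 sites). All 3 sites of Wnt2b and of Tcf7l1 and 2 of the 5 of Dvl2 lie within CCGG, and so does the Fzd2 site with its low level. Those of Sfrp5 and Sfrp2 do not. Across promoters in islands, the 50 Wnt sites within CCGG averaged 50.6% and the 11 other sites 23.7%. The same gap was present over all genes (49.8 and 27.9%), and the part of the cut site in these promoter levels was not tested. The plot of level by distance shows both kinds of site around the Wnt starts.

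**Figure D1:**
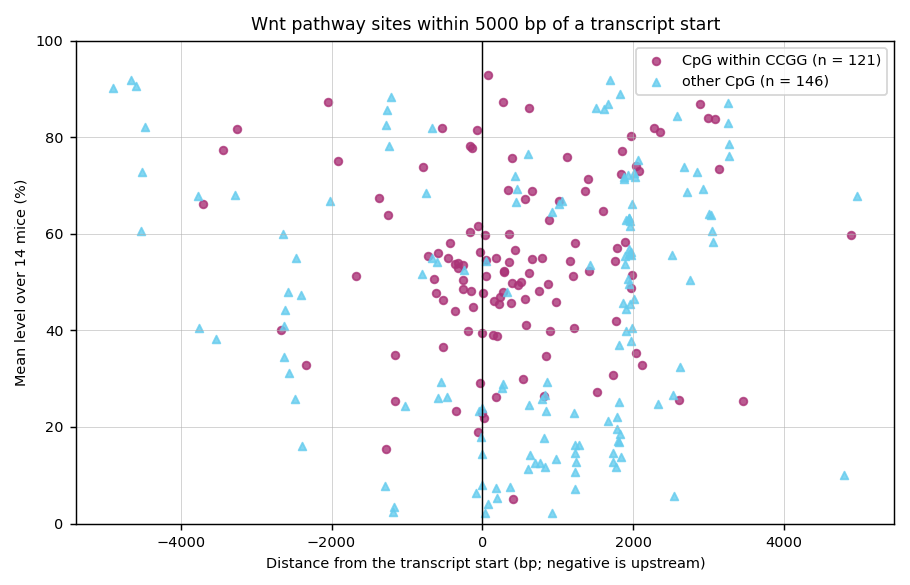
Mean methylation level over the 14 mice (vertical axis, %) of each Wnt pathway site within 5000 bp of a transcript start, against its distance from that start (horizontal axis, bp). Circles are the CpGs within CCGG and triangles the other CpGs; near the start the circles crowd around 50%, where the 50 CCGG sites in promoter islands average 50.6%, and the triangles lie lower.

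Over the 339 tested Wnt sites, the mean level was lowest in DIO-HFD mice. It was 59.0, 59.4 and 54.9% in the CON-LFD mice and 61.9, 52.0, 53.9 and 52.9% in the DIO-HFD mice. It was 61.3, 55.7 and 59.1% in the DIO-LFD mice and 60.5, 59.4, 60.3 and 60.7% in the DIO-VSG mice. The DIO-HFD group overlapped every other group, but only through replicate 1, whose Wnt mean was the highest of all 14 mice. The 4 DIO-VSG mice spanned little more than 1 percentage point (SD 0.589), against an SD of 4.56 in DIO-HFD mice. All tested sites had the same order of group means, from 59.7% in DIO-HFD to 63% in CON-LFD, 63.1% in DIO-LFD and 64.6% in DIO-VSG mice. The median Wnt site was 3.06 points higher in CON-LFD than in DIO-HFD mice (3.721 over all tested sites), 3.52 higher in DIO-LFD mice (3.814 over all) and 5.40 higher in DIO-VSG mice (5.40 over all). The Wnt sites as a list thus differed by about as much as the whole table.

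**Figure D2:**
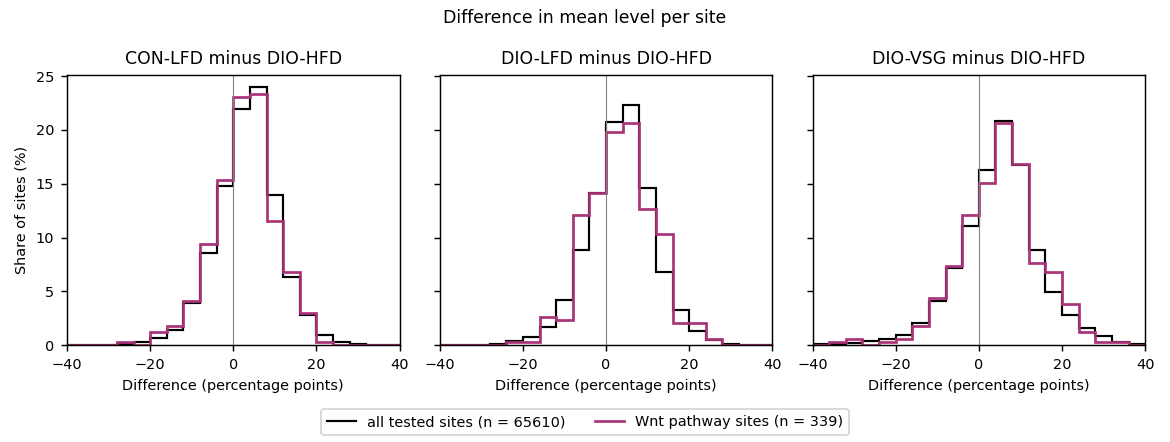
Share of sites (vertical axis, %) by the difference in mean level from DIO-HFD mice (horizontal axis, percentage points, in bins of 4 points), for the 339 tested Wnt sites and all 65610 tested sites. The Wnt and overall outlines lie almost on each other in all 3 comparisons, with medians of 5.40 points for both in DIO-VSG mice.

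The roles did not all share this order. Wnt ligands (195 tested sites in 16 genes) averaged 54.6 ± 5.17% in DIO-HFD and 60.5 ± 0.266% in DIO-VSG mice (mean ± SD over 4 mice each). Receptors (66 sites in 9 genes) averaged 51.1 ± 6.79 and 56.8 ± 1.28%, secreted inhibitors (11 sites in 4 genes) 56.5 ± 5.65 and 63.8 ± 3.59%, and R-spondins (13 sites in 4 genes) 75.7 ± 3.09 and 79.8 ± 1.06%. Cytoplasmic components (36 sites in 5 genes) stood at 58.1 ± 3.07 and 61.04 ± 1.41%. The TCF factors (18 sites in 3 genes) had the opposite order through Tcf7 (13 of the sites), with 55.3 ± 4.41% in DIO-HFD, 51.5 ± 1.66% in CON-LFD, 52.6 ± 2.14% in DIO-LFD and 51.4 ± 1.25% in DIO-VSG mice. The other 2 genes did not share it, since their DIO-VSG means were 14.7 (Tcf7l2) and 1.41 points (Tcf7l1) above those of DIO-HFD mice. In every role, DIO-HFD replicate 1 lay on the far side of its 3 group mates, toward the other groups. No difference between roles was tested.

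**Figure D3:**
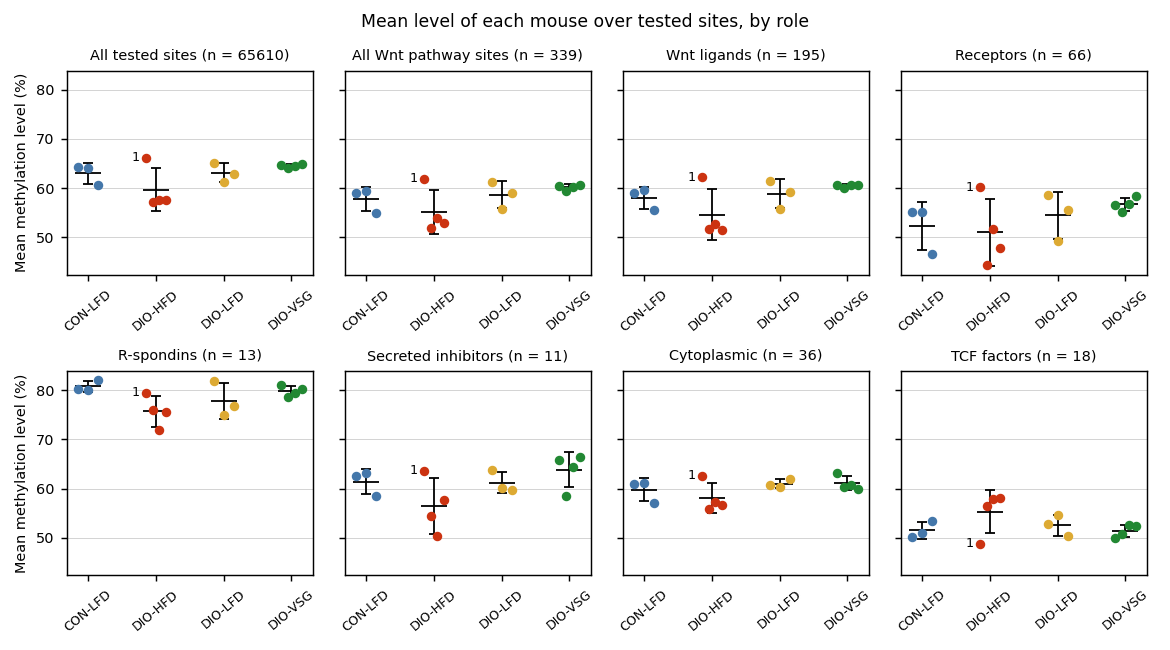
Mean level of each mouse (points, vertical axis in %) over all tested sites, all tested Wnt sites and the sites of each role, by group, with the number of sites in each title; horizontal bars are group means and whiskers 1 SD over the mice. DIO-HFD replicate 1 is marked 1; it sits above its 3 group mates in every panel except that of the TCF factors, where it sits below them at 48.8%.

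Each group was compared with the obese DIO-HFD mice to ask which sites differed without obesity, after diet weight loss and after sleeve gastrectomy. Tests used limma on log-scaled levels (M values) in 1 model of the 14 mice, with p-values adjusted over all 65610 tested sites. Regions were runs of at least 3 tested sites of 1 gene with gaps of at most 100 bp, 27 of them in Wnt genes, and gene means were tested for all 41 genes. The number of mice limits these p-values, which set a group difference against the spread between separate animals. This spread was pooled over the 4 groups, although the SDs above differ between groups.

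In CON-LFD against DIO-HFD mice, 0 of 339 Wnt sites, 0 of 27 regions and 0 of 41 gene means passed an adjusted p of 0.05 in limma, as did 0% of all sites. At an unadjusted p under 0.05 there were 19 Wnt sites, or 5.60%, where 7.76% of all sites were. Of these, 13 were higher and 6 lower in CON-LFD mice (6% and 1.76% of all sites), and 7 higher and 9 lower once each mouse was centred on its median. Groups did not overlap at 16 Wnt sites, or 4.72%, beside 4.68% of all sites. Without DIO-HFD replicate 1, 37 Wnt sites (10.9%) passed the adjusted threshold, 27 higher and 10 lower, where 12% of all sites did. The 10 lower sites belong to Tcf7 and Wnt4. In the same fit 12 of 27 regions (39% of all regions) and 6 of 41 gene means (14.8% of all genes) passed.

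The site with the smallest p lay upstream of Rspo4os, at chr2:151880648 (−13689 bp from its start). Its level was 95.0, 95.8 and 98.2% in CON-LFD mice against 93.8, 77.8, 77.8 and 72.7% in DIO-HFD mice. CON-LFD mice lay above all DIO-HFD mice, by 15.9 points in the mean (adjusted p = 0.611; 0.0164 without DIO-HFD replicate 1). In a coding exon of Wnt3, a canonical ligand of early development, the 3 sites at chr11:103812523-103812584 averaged 92.3, 94.1 and 94.0% in CON-LFD and 90.3, 86.9, 89 and 81.9% in DIO-HFD mice. These groups did not overlap either, and differed by 6.45 points (adjusted p = 0.458 over the 6574 regions; 0.0370 without replicate 1). A Wnt6 intron site at chr1:74774224, in a ligand that restrains adipocyte formation, averaged 28.5 ± 2.61% in CON-LFD and 17.4 ± 10.1% in DIO-HFD mice, where the 4 mice were at 32.2, 9.34, 14.5 and 13.5% (adjusted p = 0.611; 0.0208 without replicate 1).

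In DIO-LFD against DIO-HFD mice, 0 Wnt sites, regions or gene means passed the adjusted threshold in limma (0.00305% of all sites did). At an unadjusted p under 0.05 there were 30 Wnt sites, or 8.85%, where 10.1% of all sites were. Of these, 23 were higher and 7 lower in DIO-LFD mice (7.92% and 2.16% of all sites), and 17 higher and 12 lower after centring. Groups did not overlap at 13 sites (3.835%, against 4.8% of all), 5 of them in Wnt7b. Without DIO-HFD replicate 1, 55 Wnt sites (16.2%) passed, 45 higher and 10 lower, where 14.6% of all sites did. Again the lower sites belong to Tcf7 and Wnt4. In the same fit 11 regions (40.3% of all) and 7 gene means (14.7% of all) passed.

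The smallest p belonged to a site at chr11:108922001 in an intron of Axin2, a scaffold of the β-catenin degradation complex and a common target of the pathway. Its level was 0% in the 3 CON-LFD and the 4 DIO-VSG mice, and 0, 0, 3.77 and 0% in DIO-HFD mice. In DIO-LFD mice it was 2.67, 20 and 6.06%. The difference was 8.63 points, with 1 DIO-LFD mouse far above the others and overlapping groups (adjusted p = 0.494; 0.0398 without DIO-HFD replicate 1). At unknown depth, an exact 0 does not show how far above 0 the true level could lie.

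In DIO-VSG against DIO-HFD mice, 0 Wnt sites, regions or gene means passed the adjusted threshold in limma (0.00305% of all sites did, 0% of regions and 0% of genes). At an unadjusted p under 0.05 there were 81 Wnt sites, or 23.9%, where 25% of all sites were. Of these, 68 were higher and 13 lower in DIO-VSG mice (20.2% and 4.85% of all sites), but 24 higher and 37 lower after centring. Ligands held 60 of the 81 sites (53 higher and 7 lower), which is 30.8% of the tested ligand sites. Receptors held 7 (10.6% of theirs) and TCF factors 7 (38.9% of theirs). Of the regions, 15 of 27 were at this threshold (39.7% of all regions), 12 higher and 3 lower (32.8% and 6.92% of all). Groups did not overlap at 27 sites, 22 higher and 5 lower, or 7.96% beside 7.58% of all sites (5.55% higher and 2.03% lower). Of the 22, 7 were in Wnt7b. Without DIO-HFD replicate 1, 125 Wnt sites (36.9%) passed the adjusted threshold, 105 higher and 20 lower, where 34.4% of all sites did. The same omission gave 17 of 27 regions (61.6% of all regions passed) and 20 of 41 gene means (34% of all genes).

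Wnt7b, a canonical ligand made by epithelia, held more of these non-overlapping sites than any other Wnt gene. It also had the most tested sites, many of them close neighbors, so the count is not a rank of genes. Over its 32 tested sites its mean was 69.2, 56.2, 56.6 and 56.2% in DIO-HFD mice. In DIO-VSG mice it was 70.0, 70.4, 69.6 and 69.9%, above every DIO-HFD mouse, with a difference of 10.4 points (adjusted p = 0.142 over 11825 genes; 0.00650 without replicate 1). CON-LFD mice were at 68.0, 70.3 and 60.8% and DIO-LFD mice at 71.6, 59.9 and 68.6%. Of the 32 sites, 28 had a higher and 4 a lower mean in DIO-VSG than in DIO-HFD mice, with differences from −19.1 to 24.6 points. At an unadjusted p under 0.05 in limma, 12 were higher and 2 lower. The largest differences were in the introns, far from the start. The 4 sites within 1000 bp of a start had differences of −4.80 to 0.737 points.

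The 4 Wnt7b intron sites at chr15:85559970-85560021, 18050 to 18101 bp into the gene, averaged 70.7, 49.96, 50.4 and 47% in DIO-HFD mice. In DIO-VSG mice they averaged 67.2, 73.2, 71.6 and 73.6%. DIO-LFD mice, at 73.9, 70.2 and 68.6%, and CON-LFD mice, at 61.3, 73.6 and 69.3%, were all above DIO-HFD replicates 2 to 4 as well. The difference of 16.9 points for DIO-VSG had an adjusted p of 0.0830, and 0.000421 without replicate 1. Within this region the single site chr15:85559989 had 71.2, 48.5, 49.3 and 49.8% in DIO-HFD and 73.5, 79.1, 80.5 and 75.9% in DIO-VSG mice (adjusted p = 0.150; 0.00143 without replicate 1).

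A second Wnt7b intron region, chr15:85543015-85543075, had DIO-VSG mice above all 4 DIO-HFD mice, replicate 1 included. Its levels were 64.1, 57.9, 63.3 and 58.8% in DIO-HFD mice and 70.4, 69.8, 70.1 and 72.1% in DIO-VSG mice. The 3 CON-LFD mice, at 65.2, 69.3 and 66.9%, and the 3 DIO-LFD mice, at 71.8, 69.9 and 70.1%, also lay above all DIO-HFD mice. Differences from DIO-HFD were 6.11 points in CON-LFD, 9.59 in DIO-LFD and 9.58 in DIO-VSG mice, with adjusted p of 0.458, 0.405 and 0.0830. Without replicate 1 these were 0.0713, 0.0137 and 0.00504, so the calls in DIO-LFD and DIO-VSG mice did depend on it. All 3 comparisons share the same DIO-HFD mice.

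Wnt4, a progesterone target that drives side branching of the mammary ducts, differed in both directions. Of its 22 tested sites, 15 had a higher and 7 a lower mean in DIO-VSG than in DIO-HFD mice. The 5 sites at chr4:137264277-137264412, at −13212 to −13077 bp from the start, were all lower. They averaged 42.6, 71.1, 66.2 and 68.7% in DIO-HFD and 41.9, 41.2, 41.5 and 40.1% in DIO-VSG mice. Every DIO-VSG mouse was below every DIO-HFD mouse, but replicate 1 by less than 1 point. CON-LFD mice were at 43.5, 42.1 and 54.9% and DIO-LFD mice at 43.9, 53.2 and 51.3%. The differences from DIO-HFD were −20.9 points in DIO-VSG (adjusted p = 0.0830), −15.3 in CON-LFD (0.458) and −12.7 in DIO-LFD mice (0.405). Without replicate 1 the adjusted p values were 0.000249, 0.00419 and 0.00409. At the same gene, 3 sites at chr4:137255616-137255719, farther upstream, were at 75.7, 55.3, 61.5 and 65.1% in DIO-HFD and 79.9, 75.3, 74.1 and 75.8% in DIO-VSG mice, the opposite direction (adjusted p = 0.0943; 0.00610 without replicate 1).

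Tcf7, which encodes the factor TCF-1 best known from T cells, was the one gene mean of 11 at an unadjusted p under 0.05 that was lower in DIO-VSG mice. The other 10, all higher, were Rspo2, Wnt8b, Wnt7b, Tcf7l2, Lrp5, Wnt5b, Sfrp1, Lgr6, Wnt10b and Fzd10. The share of Wnt genes at this threshold was 26.8%, beside 27% of all genes (23.6% higher and 3.37% lower). Over its 13 tested sites Tcf7 averaged 39.2, 55.2, 56.8 and 56.6% in DIO-HFD and 40.6, 41.3, 45.1 and 44.9% in DIO-VSG mice. DIO-HFD replicate 1 was the lowest of all 14 mice and the other DIO-HFD mice the highest (difference −8.98 points, adjusted p = 0.170; 0.00314 without replicate 1). CON-LFD mice were at 42.1, 43.6 and 48.7% and DIO-LFD mice at 45.4, 50.2 and 43.2%.

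The lower Tcf7 levels came from both sides of its start. The 4 island sites at chr11:52314356-52314401, at −31388 to −31343 bp, averaged 14.4, 40.7, 43.5 and 31.6% in DIO-HFD and 10.8, 14.1, 19.9 and 18.1% in DIO-VSG mice. They differed by −16.8 points (adjusted p = 0.0830; 0.000502 without replicate 1). The 3 sites at chr11:52282111-52282140, just inside the gene and also in an intron of the overlapping A630014C17Rik, averaged 56.6, 84.0, 82.2 and 90.8% in DIO-HFD and 65.1, 62.0, 65.9 and 67.3% in DIO-VSG mice (adjusted p = 0.0932; 0.000622 without replicate 1). In both regions DIO-HFD replicates 2 to 4 stood above all DIO-VSG mice and replicate 1 did not.

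Of the 2 lymphocyte genes with sites, both known from T cell signalling, Lat moved with Tcf7. Over 5 Lat sites the mean was 28.4, 70.7, 73.7 and 66.4% in DIO-HFD and 30.9, 33.8, 35.4 and 35.6% in DIO-VSG mice. It was 37.5, 38.4 and 59.0% in CON-LFD and 31.1, 56.1 and 47.7% in DIO-LFD mice. As at Tcf7, DIO-HFD replicates 2 to 4 were the highest mice at Lat and replicate 1 the lowest. Zap70 did not show this, with 58.7, 64.5, 65.2 and 70.0% in DIO-HFD and 57.5 to 64.4% in DIO-VSG mice over 3 sites, and up to 67.6% in CON-LFD and 68.9% in DIO-LFD mice. At the upstream Wnt4 region DIO-HFD replicates 2 to 4 were the highest mice as well. The defining genes Ptprc and Cd3e have no site within 1000 bp of their starts. Of the 2 adipocyte genes with sites, Lipe averaged 50.2, 37.8, 44.3 and 43.1% in DIO-HFD and 49.0, 52.0, 51.4 and 52.4% in DIO-VSG mice over 3 sites. There DIO-HFD replicates 2 to 4 were below all DIO-VSG mice and replicate 1 was not. CON-LFD mice were at 50.3, 49.0 and 40.8% and DIO-LFD mice at 50.5, 50.4 and 52.1%. The single Pparg site was at 3.33, 0, 8.70 and 0% in DIO-HFD and 0, 4.17, 0 and 23.1% in DIO-VSG mice. For the 2 epithelial genes the mean of the gene means was 40.8 to 46.1% in DIO-HFD and 40.8 to 48.7% in DIO-VSG mice. The part of cell makeup in the Tcf7, Wnt4 and other results was not tested.

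Tcf7l2, a TCF factor known from the genetics of diabetes, had the largest increase among the named sites. In the other direction, a Wnt4 site differed by −34.5 points between DIO-VSG and DIO-HFD mice. The Tcf7l2 intron site chr19:55789095 was at 79.1, 39.2, 44.2 and 34.4% in DIO-HFD and 84.3, 76.3, 79.9 and 86.7% in DIO-VSG mice. The groups overlapped through replicate 1 alone (32.6 points, adjusted p = 0.150; 0.00109 without it). CON-LFD mice were at 71.1, 77.2 and 61.6% and DIO-LFD mice at 78.2, 62.0 and 68.6%.

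**Figure D4:**
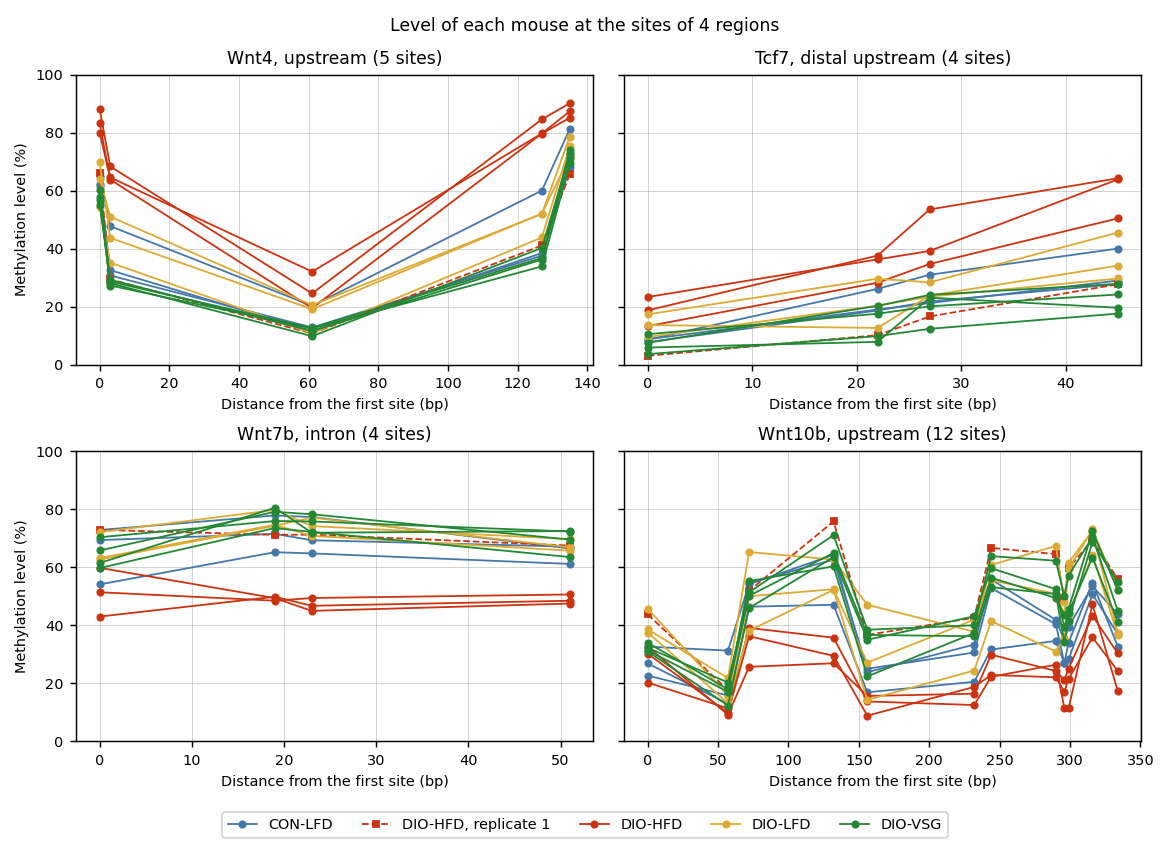
Level of each of the 14 mice (lines, vertical axis in %) at the tested sites of 4 regions, against the distance from the region's first site (horizontal axis, bp); colors are the groups and the dashed line with squares is DIO-HFD replicate 1. At Wnt4 and Tcf7 the 3 solid DIO-HFD lines lie above the DIO-VSG lines, at Wnt7b and Wnt10b mostly below them, and replicate 1 runs with the other groups in all 4 panels.

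Wnt10b, the ligand best known for restraining adipocyte formation, is given after its values were seen. The 12 sites at chr15:98780483-98780817, at −2668 to −2334 bp from the start, averaged 52.8, 25.02, 23.1 and 22.4% in DIO-HFD and 50.2, 45.3, 45.2 and 44.2% in DIO-VSG mice (adjusted p = 0.0879; 0.000445 without replicate 1). CON-LFD mice lay between, at 42.4, 37.7 and 31.6%, and DIO-LFD mice were at 51.7, 36.05 and 47.3%. Its single site chr15:98780799 was 21.0 points higher in DIO-LFD than in DIO-HFD mice (adjusted p = 0.494; 0.00858 without replicate 1). In the coding exon, 8 sites at chr15:98774173-98774368 were at 84.6, 48.5, 53.7 and 52.8% in DIO-HFD and 79.9, 78.2, 80.8 and 78.3% in DIO-VSG mice (adjusted p = 0.0877; 0.000445 without replicate 1). Replicate 1 was thus above the DIO-VSG mice where its group mates were below. Wnt3, the ligand with the most sites in the table (36), averaged 65.6, 58.2, 60.8 and 57.6% in DIO-HFD and 64.3, 64.5, 64.2 and 62.96% in DIO-VSG mice over 27 tested sites (adjusted p = 0.289; 0.0329 without replicate 1).

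Among the receptors, the Fzd10 site at chr5:128620226, 19384 bp downstream of its start, had levels of 31.6, 8.77, 3.31 and 11.8% in DIO-HFD mice. DIO-VSG mice were at 34.9, 39.86, 32.2 and 35.5%, above all of them and above the DIO-LFD mice (18.6, 22.6 and 26.1%). The difference from DIO-HFD was 21.7 points (adjusted p = 0.150; 0.00251 without replicate 1). The receptors with the most tested sites were Fzd7 and Fzd8. Fzd7, with 18 sites mostly in its coding exon, spread widely within groups, from 47.8 to 77.1% in DIO-HFD and 64.0 to 74.7% in DIO-VSG mice (adjusted p = 0.327). Fzd8 averaged 39.8 ± 8.01 and 44.2 ± 1.24% (adjusted p = 0.489). The co-receptor Lrp5 was at 87.9, 69.8, 79.0 and 79.5% in DIO-HFD and 89.6, 88.2, 89 and 88.3% in DIO-VSG mice over 2 sites, without overlap (adjusted p = 0.144; 0.0123 without replicate 1).

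Rspo2, a secreted protein that strengthens Wnt signals through Lgr receptors, had the smallest gene-level p. It averaged 88.4, 84.1, 82.3 and 82.5% in DIO-HFD and 90.9, 90.0, 89.4 and 89.2% in DIO-VSG mice over 5 sites (5.55 points, adjusted p = 0.140; 0.00858 without replicate 1). DIO-VSG mice were above all DIO-HFD mice. Together with Wnt7b and Lrp5, it made 3 of 41 Wnt genes whose groups did not overlap (7.32%, beside 7.17% of all genes). Rspo4os averaged 76.0 ± 6.70% in DIO-HFD and 83.8 ± 5.35% in DIO-VSG mice (adjusted p = 0.214; 0.0493 without replicate 1).

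Of the secreted inhibitors, Sfrp1, which binds Wnt ligands outside the cell, was at 79.4, 68.1, 61.1 and 70.4% in DIO-HFD and 78.0, 79.3, 77.9 and 79.4% in DIO-VSG mice over 5 sites (adjusted p = 0.155; 0.00858 without replicate 1). All 4 DIO-VSG mice were above DIO-HFD replicates 2 to 4. Dkk2, which blocks the Lrp co-receptors, averaged 71.4 ± 8.37 and 76.5 ± 7.08% over 2 sites (adjusted p = 0.512). In the cytoplasm, Dvl1 averaged 55.3 ± 4.68% in DIO-HFD and 59.7 ± 0.738% in DIO-VSG mice (adjusted p = 0.257; 0.0131 without replicate 1), and the kinase gene Gsk3a 72.4 ± 5.42 and 75.4 ± 2.73% (adjusted p = 0.544). The differences at Dkk2, Dvl1 and Gsk3a were within 1 SD of the DIO-HFD mice, an SD that includes replicate 1. Dvl1 was at 62.3, 52.5, 52.9 and 53.6% in DIO-HFD and 60.4, 59.4, 58.8 and 60.2% in DIO-VSG mice. Gsk3a was at 80.2, 67.7, 70.9 and 70.7% in DIO-HFD and 79.4, 74.5, 74.8 and 73.1% in DIO-VSG mice. In both genes all DIO-VSG mice lay above DIO-HFD replicates 2 to 4 and below replicate 1.

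**Figure D5:**
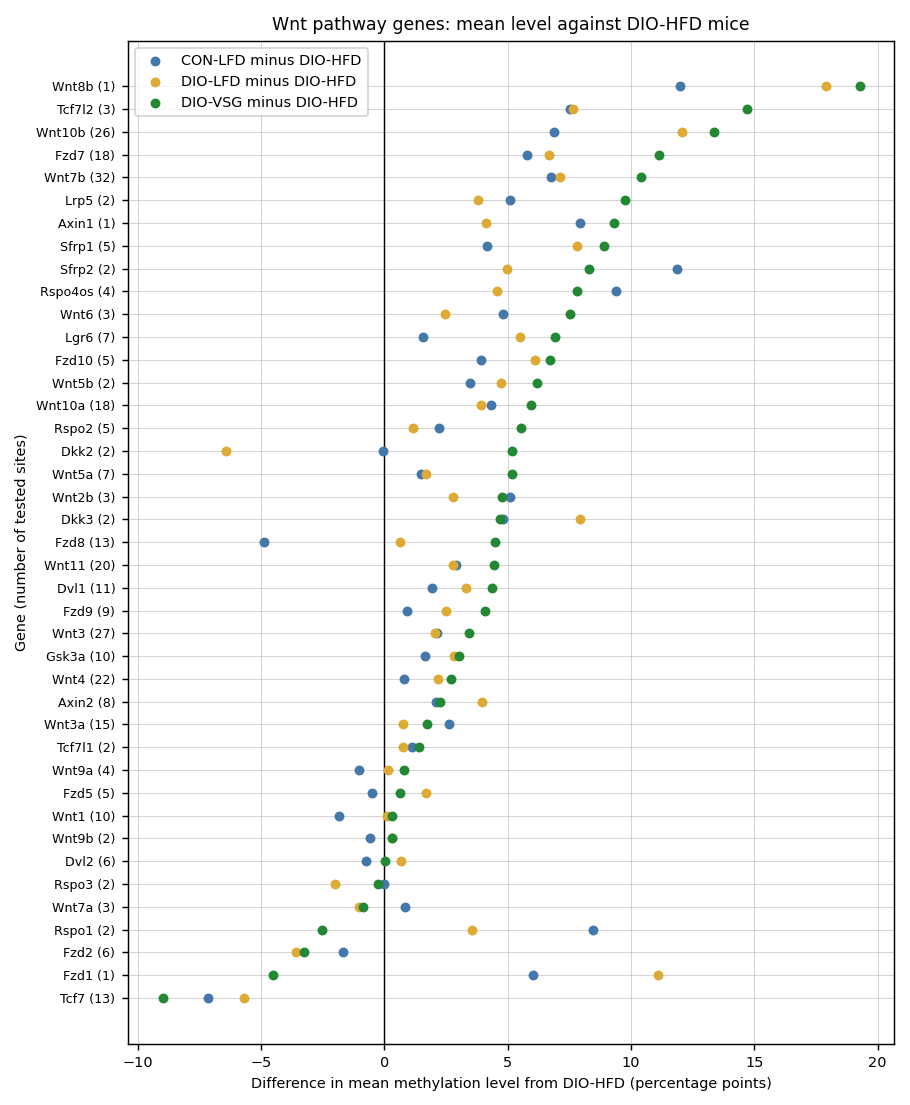
Difference in mean level from DIO-HFD mice (horizontal axis, percentage points) for each of the 41 Wnt genes with a tested site (vertical axis, number of tested sites in brackets); blue is CON-LFD, yellow DIO-LFD and green DIO-VSG. In DIO-VSG mice 85.4% of the genes lie above 0, where 77.2% of all genes do, and Tcf7 lies lowest at −8.98 points.

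The DIO-VSG differences in Wnt genes were larger in exons and introns than at promoters and islands. Over all Wnt sites in the table, including those that varied little, the mean difference from DIO-HFD mice was 11.6 points in exons (52 sites) and 7.23 points in introns (110 sites), both outside promoters and islands. It was −0.514 points in island promoters (61 sites), −0.215 points in other promoters (55 sites), 0.373 points in islands outside promoters (63 sites) and 5.18 points at the remaining sites (77 sites). Over all genes these were 6.09, 5.90, 0.889, 4.04, 3.182 and 4.56 points. Outside CCGG the Wnt difference was 6.42 points (5.60 over all sites), and within it 1.39 (1.87 over all sites). The Wnt exon sites averaged 62.4 ± 10.7% in DIO-HFD and 74.0 ± 2.19% in DIO-VSG mice (mean ± SD over mice), so the DIO-HFD mice spread widely there. Runs of neighboring tested sites lay in coding exons outside promoters and islands, with 16 in Fzd7, 8 in Wnt10b and 6 in Wnt10a. No difference between contexts was tested.

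In DIO-VSG against DIO-LFD mice, 0 Wnt sites, regions or gene means passed the adjusted threshold in limma, with or without DIO-HFD replicate 1. With it 0.00305% of all sites, 0% of regions and 0% of genes passed, and without it 0.00457%, 0% and 0.00846%. At an unadjusted p under 0.05 there were 12 Wnt sites, or 3.54%, beside 3.98% of all sites. Of these, 7 were higher and 5 lower in DIO-VSG mice (2.42% and 1.55% of all sites), and 2 higher and 10 lower after centring. Of the 41 gene means, Fzd1 (lower) and Rspo2 (higher) were at this threshold, beside 4.83% of all genes. Groups did not overlap at 25 sites (7.37%, beside 7.74%). The Axin2 intron site gave the smallest p, at 0% in all DIO-VSG mice and 2.67 to 20% in DIO-LFD mice (−9.58 points, adjusted p = 0.672). A site far upstream of Rspo3, at chr10:29678444, was at 94.7, 100, 100 and 100% in DIO-VSG and 90.0, 84.0 and 86.7% in DIO-LFD mice (adjusted p = 0.945). At the start of the Fzd1 receptor gene, chr5:4758069 was at 16.1, 21.4, 25.9 and 25.6% in DIO-VSG and 27.1, 33.6 and 52.9% in DIO-LFD mice (−15.6 points, adjusted p = 0.945). Wnt2b at chr3:104961846 and Wnt7b at chr15:85579889 had lower DIO-VSG means by 8.42 and 11.7 points, with overlapping groups and the same adjusted p. The regions with the smallest p were the upstream Tcf7 sites, at −8.26 points with no overlap, and the Wnt7b intron sites at chr15:85567125-85567175, at 13.5 points with overlap (adjusted p = 0.937 for both).

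A list of 47 other genes of the pathway was read in the same fit: co-receptors and planar polarity genes, further inhibitors, kinases and nuclear cofactors, and target genes. Of these, 27 have a tested site, and 0 gene means passed the adjusted threshold in any of the 4 comparisons. At an unadjusted p under 0.05, 1 was higher in CON-LFD than in DIO-HFD mice (8.13% of all genes were at this threshold), 1 was higher and 1 lower in DIO-LFD mice (9.19% of all genes), and 6 were higher in DIO-VSG mice (27% of all genes, 23.6% higher). Against DIO-LFD mice 1 was higher in DIO-VSG mice (4.83% of all genes). The smallest p values belonged to Frzb, a secreted Wnt inhibitor, and Tle2, a corepressor of TCF factors, in CON-LFD mice (10.5 and 7.29 points above DIO-HFD). In DIO-LFD mice they belonged to Sost, an Lrp inhibitor (−11.2 points), and Bcl9, a β-catenin cofactor (15.6 points). In DIO-VSG mice they belonged to Tle2 and the inhibitor Sostdc1, at 9.49 and 7.63 points above DIO-HFD. Against DIO-LFD mice, the DIO-VSG mice had 7.31 points more at Pygo1, a β-catenin cofactor, and 6.96 points more at Sostdc1. These means rest on few tested sites, 1 each for Frzb and Bcl9, 2 each for Sost and Sostdc1, 4 for Pygo1 and 8 for Tle2. The 27 genes had a median difference of 5.83 points between DIO-VSG and DIO-HFD mice, close to the 4.47 points of the 41 Wnt genes and the 4.20 points of all genes.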

How the data were processed

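RRBS was run on 14 mice. Reads were aligned with Bismark to mm10 by the authors, who removed bases of extreme coverage and 2 outlier mice and deposited each level as a fraction of methylated reads per site and mouse, without read counts. Gene names, distances to starts and promoter and island flags are those of the deposited table. Depth is unknown, so no interval or floor was computed, and levels are printed in percent. Groups came from the sample labels.

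For sites whose level b had an SD of at least 0.05, limma 3.58.1 in R 4.3.3 was fitted to M = log2((b + 0.01)/(1 − b + 0.01)). One model held the 4 groups and no covariate, with plain empirical Bayes moderation. The Benjamini-Hochberg adjustment ran over all 65610 sites, 6574 regions or 11825 genes, and the fit was tested on simulated data. Sequence was read from mm10 with pysam 0.24.0, gene positions came from GENCODE and promoter sequences from RefSeq. Python 3.11.15, pandas 2.3.3, NumPy 2.4.6 and Matplotlib 3.10.9 made the tables and figures.

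The members, gene lists and tests were chosen with earlier results of these data known. Named were, per comparison, the 5 member sites with the smallest p (1 a gene), the 2 such regions and the 2 such other pathway genes. Also named were the 2 genes with the most tested sites in each role, and the 3 highest and 3 lowest promoters. Wnt10b regions, Lrp5 and the second Wnt4 and Tcf7 regions were added after their values were seen.

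Tried as alternatives: an offset of 0.1, levels in place of M, moderation with trend and robust, only the 2 groups of a comparison, centring of each mouse, an SD filter of 0.1 or none, sites within 5000 bp of a start, other region settings, a block for replicate number, and omission of single mice.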

Additional observations from a re-analysis of the deposited data

Results flagged for a closer look

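Among the sites, regions and genes named above, 67 groups of 4 mice were checked for 1 mouse far from the others, by the gap to its nearest neighbor as a share of the group's range. Dixon's 95% critical value for 4 samples was exceeded in 8, where chance flags about 1 group in 20 (3.4 of 67), and the groups share mice and sites.

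In 6 of the 8 the mouse was DIO-HFD replicate 1. It stood above its group mates at the Wnt7b intron site chr15:85559989 (0.940; 71.2% against 48.5 to 49.8%), in the Wnt7b region around it (0.857), over all tested Wnt7b sites (0.963; 69.2% against 56.2 to 56.6%) and over Dvl1 (0.884; 62.3% against 52.5 to 53.6%). It stood below them over Tcf7 (0.909; 39.2% against 55.2 to 56.8%) and in the upstream Wnt4 region (0.82906; 42.6% against 66.2 to 71.1%).

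The remaining 2 are sites at an end of the scale. At the Axin2 intron site, DIO-HFD replicate 3 was at 3.77% and the other 3 mice at 0% (share of range 1). At the site upstream of Rspo3, DIO-VSG replicate 1 was at 94.7% and the other 3 mice at 100% (share of range 1).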

How the results depend on the processing

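DIO-HFD replicate 1 decided most calls. Without it, Wnt sites past the adjusted threshold went from 0 to 37, 55 and 125 in CON-LFD, DIO-LFD and DIO-VSG against DIO-HFD mice, regions from 0 to 12, 11 and 17, and gene means from 0 to 6, 7 and 20. With any of the other 13 mice left out, all of these counts were 0, so the ranges run from 0 to those values, and 0 passed between DIO-VSG and DIO-LFD mice in each case. Wnt sites at an unadjusted p under 0.05 ranged from 8 to 92, 13 to 116, 37 to 155 and 7 to 27 in the 4 comparisons when mice were left out in turn, and from 8 to 40, 13 to 47, 37 to 82 and 7 to 20 without replicate 1 among them. Median differences ranged from 1.88 to 5.38, 2.60 to 6.67, 4.38 to 7.63 and 0.138 to 2.67 points.

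Centring each mouse on its median level moved the median of all tested sites from 5.40 to −2.30 points between DIO-VSG and DIO-HFD mice, and that of Wnt sites from 5.40 to −2.29. The limma fit was repeated with each mouse centred on its median M. The share of higher sites among Wnt sites at an unadjusted p under 0.05 then went from 68.4 to 43.8%, 76.7 to 58.6%, 84.0 to 39.3% and 58.3 to 16.7% in the 4 comparisons, below 50% in all but the DIO-LFD against DIO-HFD comparison. A filter of 0.1 on the standard deviation left 94 Wnt sites, with 3, 9, 33 and 0 at an unadjusted p under 0.05, a median of 13.6 points for DIO-VSG, and 1 of 7 regions past the adjusted threshold (Wnt10b). A fit of only the 2 groups gave 5, 10 and 20 sites in CON-LFD and DIO-LFD against DIO-HFD mice and DIO-VSG against DIO-LFD mice, and the level in place of M gave 29 sites in CON-LFD mice. The cause was not tested.

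The replicate block put 5 Wnt regions past the adjusted threshold in DIO-VSG mice (Wnt4, Tcf7, Wnt10a, Wnt10b and Wnt3). Deviations of same-numbered mice were weakly correlated, at −0.0804 to 0.147, 0.0193 to 0.202, −0.00442 to 0.0573 and −0.0411 to 0.0405 in the comparisons in turn. The replicate 1 mice nevertheless correlated best with their own number in every comparison (0.147, 0.202, 0.0573 and 0.0405). So did replicate 2 in DIO-LFD against DIO-HFD mice (0.102), and the remaining pairs did not. Whether same-numbered mice share more than a number was not tested. For the upstream Wnt4 region the adjusted p in DIO-VSG mice ranged from 0.000249 to 0.225 over the alternatives, and for the first Wnt7b intron region from 0.000421 to 0.225. For the single sites of Wnt4, Wnt7b, Tcf7, Tcf7l2 and Fzd10 the range ended at 0.344.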
